A study of Mus musculus with 11 samples.

Results

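The genes described here make cholesterol and fatty acids. They were chosen as a list of 34 genes: the enzymes that carry acetyl-CoA through mevalonate and squalene to cholesterol, the regulators of the sterol response, a sterol carrier, and the enzymes that build, elongate and desaturate fatty acids. Of these, 31 had a probe under their current symbol, and 26 of the 8952 genes tested in the series were list members with a probe detected (detection p-value below 0.01) on at least 2 of the 11 arrays. Acat2, Hmgcs1 and Fdft1 had no probe under their names in the annotation used and were not analysed here. Idi1, Tm7sf2, Acaca, Elovl6 and Fads2 had probes, but none of those probes was detected on more than 1 array, so these genes were not tested. At the edge of that limit, Fasn and Scd1 passed with 2 arrays each (signals of 110.9 to 144.5 for Fasn and 111.6 to 146.9 for Scd1), Sc5d with 3, Scd2 with 5 and Mvk with 6. Idi1 was detected on 1 array, at signals of 117.5 to 141.1 over all arrays.

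The cells were primary microglia, the resident macrophages of the brain, cultured from newborn mice of the C57BL/6J strain. One group received IL-4 (100 U/ml, 48 h, 3 arrays), a cytokine that drives alternative activation. A second received TGFb (20 ng/ml, 48 h, 3 arrays), a cytokine that microglia need for their resting identity. Another received LPS (100 ng/ml), a bacterial wall component, together with IFNg (20 ng/ml) for 16 h (2 arrays, numbered 1 and 3), which drives inflammatory activation. The last group was untreated (3 arrays, with no culture time in the labels). The LPS/IFNg cells were therefore exposed for a shorter time than the others, and stimulus and time cannot be told apart in comparisons with that group. The labels do not say that replicates were separate cultures or animals, so a p-value here speaks only of how far these arrays spread, which may be technical.

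As background, cells make cholesterol from acetyl-CoA through the mevalonate pathway, then close squalene into lanosterol and trim it by oxidation, reduction and isomerisation. The pathway is run by the SREBP transcription factors: when sterols are low in the endoplasmic reticulum, Scap carries SREBP to the Golgi to be cut and released, and when sterols are high the Insig proteins hold the complex back. SREBP also drives fatty acid synthesis and desaturation, and oxysterols, which activate the liver X receptors, switch the sterol branch off.

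IL-4 replicate 1 stood apart from its group before any comparison. It correlated with the other IL-4 arrays at 0.945 and 0.954 across genes, while the lowest correlation within any other group was 0.968. It also carried more signal of other cell types: the 4 detectable fibroblast and mural cell markers of 8 listed summed to 3841 on the linear scale on that array and to 512 to 1043 on the other 10, and the 5 detectable astrocyte markers of 7 listed summed to 2954 against 615 to 726. On it the muscle actin gene Acta2 stood at 11.51 and the connexin gene Gja1 at 11.15 (normalized log2 signal). All 8 measured microglia markers were detected on each of the 9 arrays without LPS/IFNg, and 6 of them on both LPS/IFNg arrays, where Tmem119 and P2ry12 were not detected. In bulk RNA, fewer cells of a type and less RNA per cell cannot be told apart. The arrays lay on 2 slides: all 3 untreated arrays were on slide 2 with replicate 3 of each stimulus, and the other 5 stimulated arrays were on slide 1.

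Part of both branches read lower in LPS/IFNg cells than in untreated cells. In LPS/IFNg cells 10 of the 26 members were lower than in untreated cells and none was higher (limma, adjusted p below 0.05 over all genes tested). Fads1, the desaturase that makes arachidonic acid, fell by the largest amount among the 26 members, 4.38 ± 0.34 on the log2 scale (SE). Elovl5 and Sqle had log2 fold changes of -2.06 and -1.95, and Dhcr7, not detected on either LPS/IFNg array, was at least 3.67-fold lower. LPS/IFNg moved much of the transcriptome: 41% of all genes were called in this comparison (17.5% higher and 23.5% lower, 1568 and 2106 genes; 1011 and 2322 under median scaling), so the share of members called, 38.5%, lay near the background. The members differed from all genes in direction: all 10 calls were falls, and 22 of the 26 fold changes were below 0, beside 4827 of 8952 over all genes. Among the 22, Mvk, Sc5d, Dhcr7, Fasn and Scd2 were detected on no LPS/IFNg array. The median log2 fold change of the members was -0.53, beside -0.07 over all genes. On 16 members the LPS/IFNg and untreated arrays did not overlap, a share of 61.5% beside 63.1% of all genes, and all 16 were lower with LPS/IFNg, beside 34.9% of all genes lower and 28.2% higher. Among the 16, Fasn was detected on none of these arrays, and Sc5d and Dhcr7 on no LPS/IFNg array. Sc5d passed the detection filter only through 2 untreated arrays and 1 TGFb array, which favours a lower reading with LPS/IFNg. Other probes of Insig1 changed less, and those of Elovl1 had the other sign. At an unadjusted p below 0.05, 12 of the 26 members passed, beside 4394 of the 8952 genes tested.

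**Figure D1:**
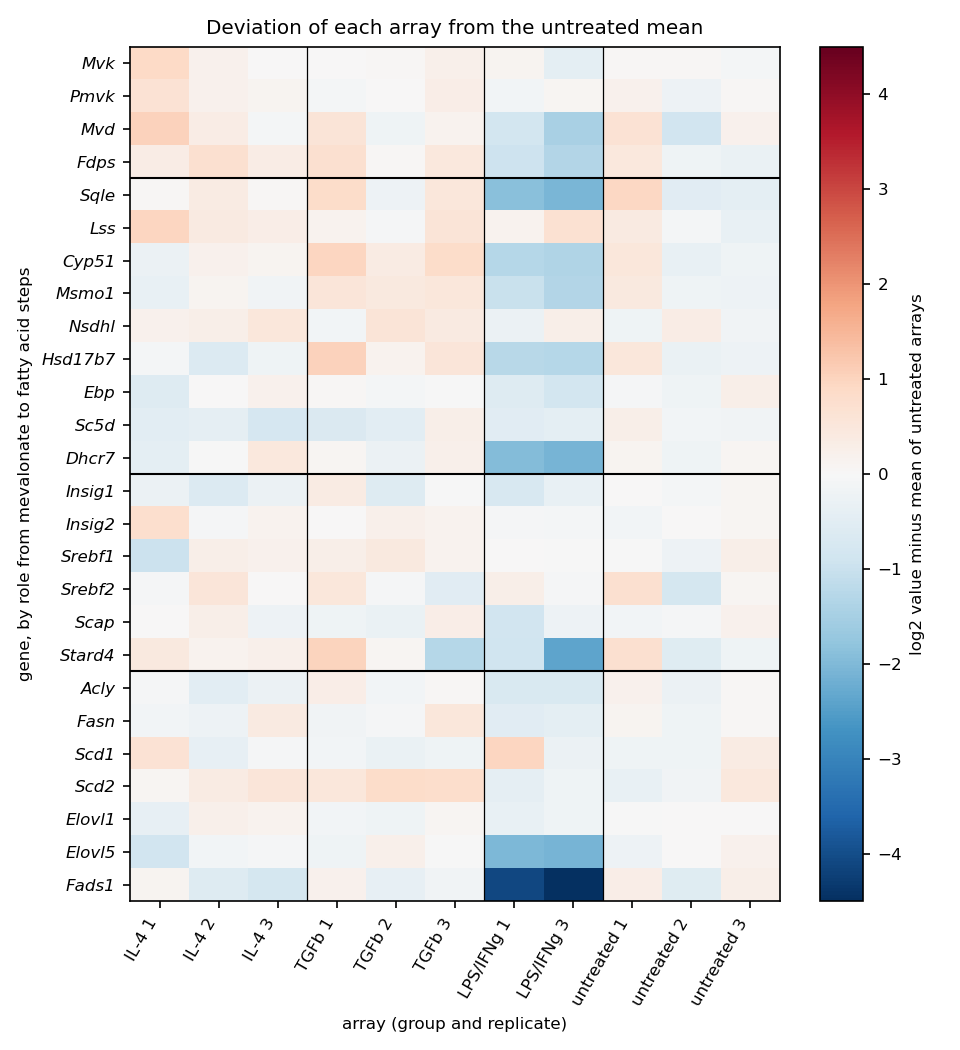
Normalized log2 signal of the 26 detected synthesis genes on each of the 11 arrays, minus the mean of the 3 untreated arrays of that gene (colour scale, log2 units, red above and blue below). Genes run from the mevalonate steps at the top to the fatty acid steps at the bottom, with black lines between roles. Both LPS/IFNg arrays are blue for the sterol steps from Sqle to Dhcr7, except Lss, Nsdhl and the paler Ebp and Sc5d, and darkest for Fads1.

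**Figure D2:**
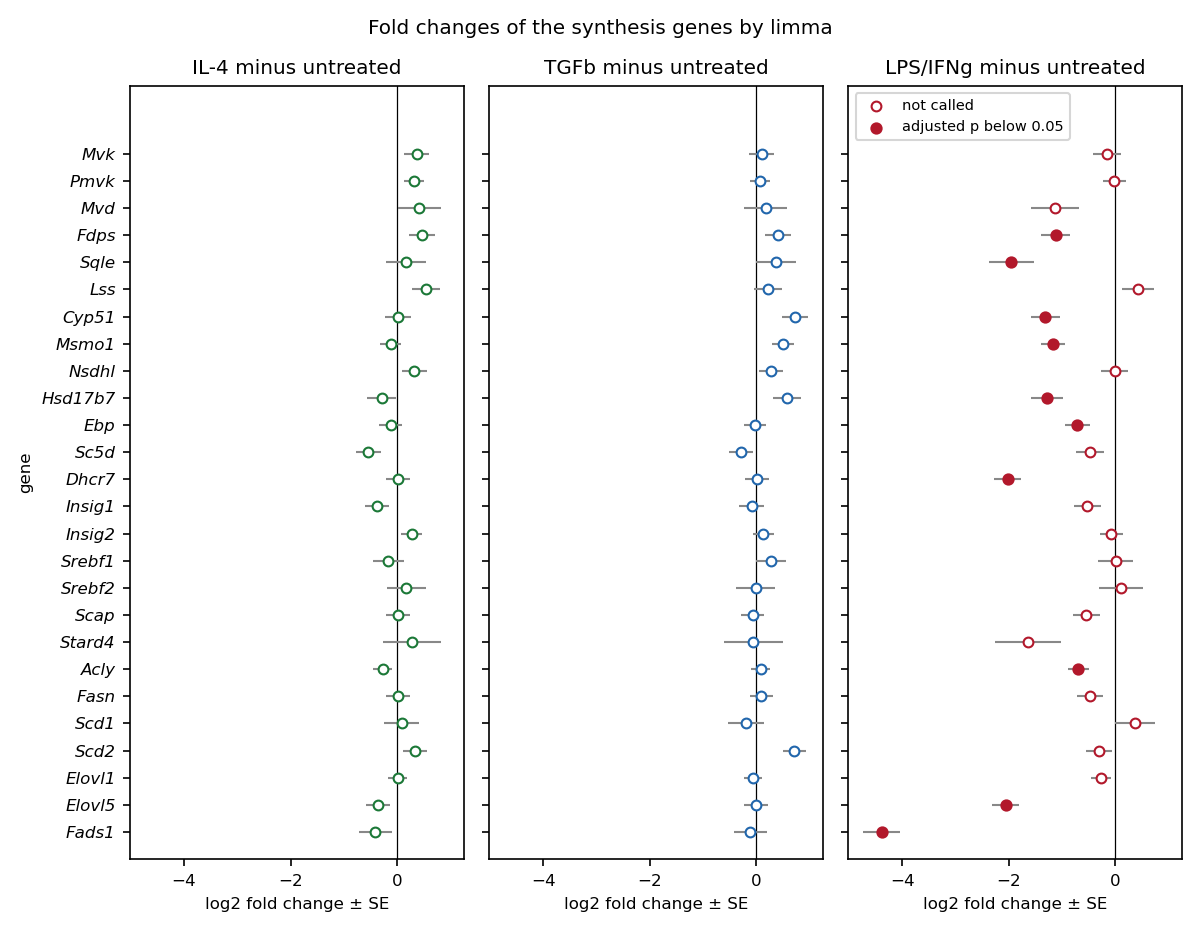
Log2 fold change (points) with its standard error (bars) of each detected synthesis gene for IL-4, TGFb and LPS/IFNg, each minus untreated cells, from limma. Filled points passed an adjusted p of 0.05 and open points did not: 10 members are filled with LPS/IFNg, none with IL-4 and none with TGFb. Dhcr7, Mvk, Sc5d, Fasn and Scd2 were detected on no LPS/IFNg array, and their points in that panel are not measured sizes.

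Among the mevalonate steps the share called lower lay near that of all genes. Of their 4 measured enzymes, 1 was called lower with LPS/IFNg than in untreated cells, 25% beside 23.5% of all genes. Fdps, which joins isoprene units into farnesyl diphosphate, read 8.61 and 8.22 on the LPS/IFNg arrays, against 10.02, 9.33 and 9.24 in untreated cells. The groups did not overlap, and the log2 fold change was -1.12 ± 0.28 (SE, limma, adjusted p = 0.00802). Without LPS/IFNg replicate 3, the lower of the pair, the adjusted p was 0.0791. Mvd, the decarboxylase that makes the first isoprene unit, averaged 5.31 ± 0.46 with LPS/IFNg (SD, n = 2), with the probe detected on 1 array, and 6.44 ± 0.78 in untreated cells (SD, n = 3). Its log2 fold change of -1.14 was of the same size as that of Fdps but did not pass (adjusted p = 0.0672), and untreated replicate 2, at 5.58, lay below the higher LPS/IFNg array. Pmvk, the second kinase of the pathway, had a log2 fold change of -0.01 ± 0.21 (SE). Mvk, the kinase before it, was detected on neither LPS/IFNg array and did not pass (adjusted p = 0.68).

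The steps from squalene to cholesterol held 6 of the 10 called falls. Of 9 measured enzymes, 6 were called lower with LPS/IFNg than in untreated cells, 66.7% beside 23.5% of all genes. The median log2 fold change over the 9 was -1.16, beside -0.07 over all genes. Sqle, the squalene epoxidase that opens this stretch, read 7.06 and 6.88 with LPS/IFNg, against 9.87, 8.40 and 8.50 in untreated cells. Both LPS/IFNg arrays lay below every other array of the series, and untreated replicate 1 stood well above the other untreated arrays. The log2 fold change was -1.95 ± 0.42 (SE, limma, adjusted p = 0.00367), and a second probe of Sqle gave -1.63 (adjusted p = 0.00721 over all probes).

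Cyp51, the lanosterol demethylase, read 6.89 and 6.82 with LPS/IFNg, against 8.69, 7.83 and 7.98 in untreated cells. The groups were apart by nearly a whole log2 unit, with a log2 fold change of -1.31 ± 0.27 (SE, limma, adjusted p = 0.00315). Msmo1, which oxidises the methyl groups that are then removed, read 8.82 and 8.53 with LPS/IFNg, against 10.26, 9.65 and 9.60 in untreated cells. Its log2 fold change was -1.16 ± 0.22 (SE, limma, adjusted p = 0.00197). Hsd17b7, the ketosteroid reductase of the same demethylation cycle, read 7.27 and 7.23 with LPS/IFNg, against 9.05, 8.24 and 8.30 in untreated cells. It fell by 1.28 ± 0.30 on the log2 scale (SE, limma, adjusted p = 0.00617). In each of Fdps, Sqle, Cyp51, Msmo1 and Hsd17b7 untreated replicate 1 was the highest untreated array, and in each the lowest untreated array still lay above both LPS/IFNg arrays.

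Dhcr7, the reductase that makes cholesterol in the last step of one branch, read 5.30 and 5.15 with LPS/IFNg, against 7.35, 7.06 and 7.32 in untreated cells. Its probe was detected on all 9 other arrays and on neither LPS/IFNg array, so the signal there is only an upper limit. Dhcr7 was at least 3.67-fold lower with LPS/IFNg (means of 5.23 and 7.24, limma, adjusted p = 0.000123). Ebp, the sterol isomerase, averaged 8.29 ± 0.19 with LPS/IFNg (SD, n = 2) and 9.00 ± 0.24 in untreated cells (SD, n = 3). Its fall of 0.71 ± 0.24 (SE, limma, adjusted p = 0.0341) did not pass without either LPS/IFNg array, without untreated replicate 1 or 3, or with slide as a block (adjusted p = 0.0779).

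The other 3 enzymes of the stretch did not pass. Lss, which closes the ring of lanosterol directly after Sqle, read 7.18 and 7.69 with LPS/IFNg, against 7.42, 6.91 and 6.69 in untreated cells, a log2 fold change of 0.43 ± 0.29 (SE, limma, adjusted p = 0.27). Lss thus overlapped between the groups, while Sqle before it and Cyp51 after it fell. Nsdhl, the decarboxylase of the demethylation cycle, had a log2 fold change of -0.01 ± 0.26 (SE), but its 4 probes disagreed: one of the dimmer ones gave -0.60 (adjusted p = 0.0169 over all probes) and the others -0.15 and 0.10. Sc5d, the lathosterol desaturase, was detected on no LPS/IFNg array and on 2 untreated arrays, and did not pass (adjusted p = 0.174).

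**Figure D3:**
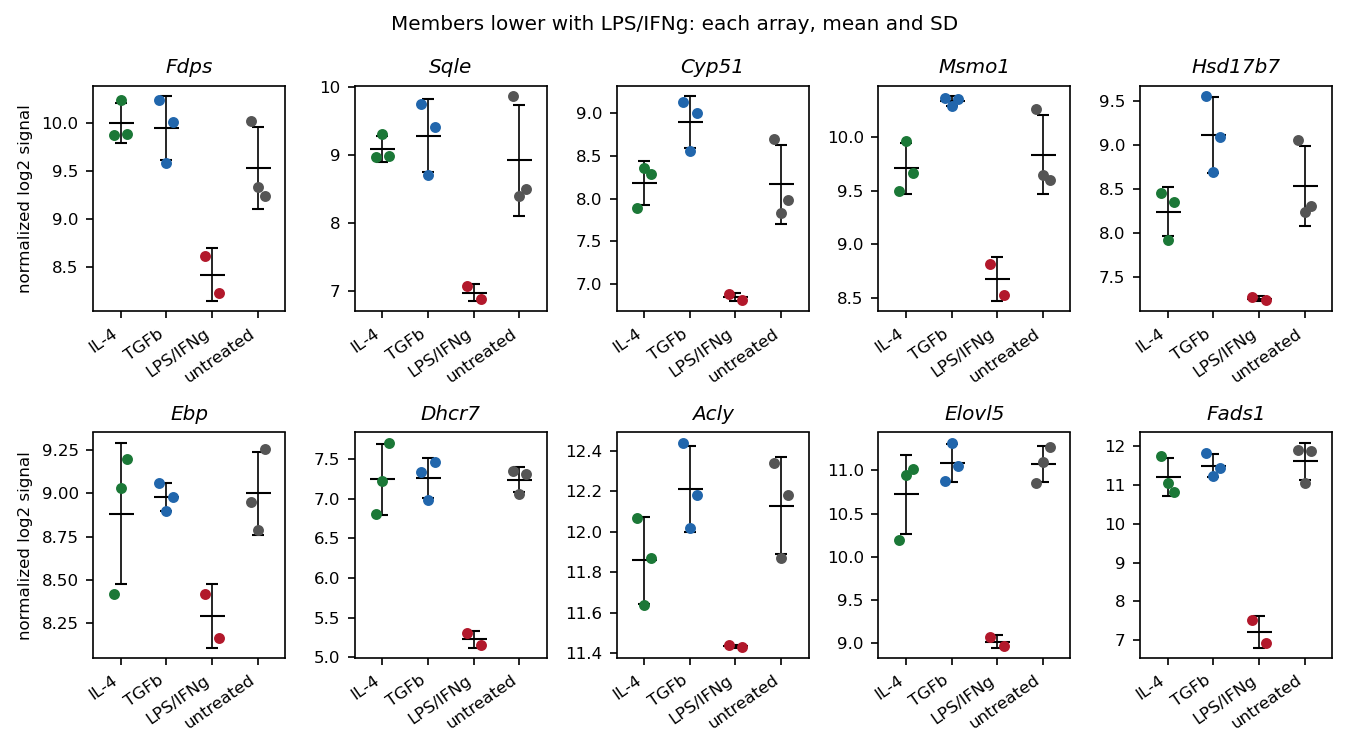
Normalized log2 signal (vertical axes, each with its own range and none starting at 0) of the 10 members called lower with LPS/IFNg than in untreated cells. Points are arrays, horizontal bars are means and whiskers are SD (IL-4, TGFb and untreated n = 3, LPS/IFNg n = 2). Both LPS/IFNg points lie below every other array in all panels except Ebp, where IL-4 replicate 1, at 8.42, reaches the higher of them.

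Promoter sequences were set beside these falls because most of the measured sterol enzymes, 6 of 9, were lower and the pathway has a known common regulator. RefSeq promoter windows (250 bases before to 50 after a transcription start, build GRCm38.p6) were found for 20 of the 26 members in 29 windows, and for 7 of the 10 members called lower with LPS/IFNg. Fdps, Sqle and Fads1 are the others among those 10. The classical sterol regulatory element, spelled TCACNCCAC and searched on both strands, was in none of the 29 windows, and in 1.24% of all 32851 promoter windows. A looser spelling, TCACNNCA, was searched after the first gave no match. It was in 37.9% of the member windows, in 10 of the 20 members and in 5 of the 7 called ones, beside 10.8% of the windows of tested genes and 13.8% of all windows. The box CCAAT, where NF-Y, a partner of SREBP, binds, was in 69.0% of the member windows, in 19 of the 20 members and in all 7 called ones, beside 37.4% of the windows of tested genes. The member without it, Scap, was not called, and every other uncalled member with a window also held the box. The GC box GGGCGG was in 75.9% of the member windows and 62.6% of those of tested genes, and the E-box CACGTG in 24.1% and 10.4%. A match is a description of letters, not a bound site.

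The windows of the 5 called members with the looser element are shown, each in the direction of transcription, to let the position of the element and the boxes be compared. Capitals mark TCACNNCA and CCAAT, the box written ATTGG where it lies on the other strand. In Cyp51 and Hsd17b7 the element has the same letters, TCACCTCA, starting 88 and 117 bases before the start site. Msmo1 holds the element at 2 places, at 177 and at 92 bases before the start site, and the second overlaps a CCAAT box by 1 letter. Dhcr7 has 3 annotated start sites, and the window shown has the element 32 bases before its start site with a box on either strand upstream of it.
Cyp51 (chr5:4104648-4104947, minus strand): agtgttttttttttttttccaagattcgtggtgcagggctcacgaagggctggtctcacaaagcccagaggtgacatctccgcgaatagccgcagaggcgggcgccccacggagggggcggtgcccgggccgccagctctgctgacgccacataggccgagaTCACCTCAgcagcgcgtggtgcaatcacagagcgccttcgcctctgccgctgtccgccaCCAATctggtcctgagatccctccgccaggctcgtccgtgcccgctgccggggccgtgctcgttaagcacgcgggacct
Hsd17b7 (chr1:169969156-169969455, minus strand): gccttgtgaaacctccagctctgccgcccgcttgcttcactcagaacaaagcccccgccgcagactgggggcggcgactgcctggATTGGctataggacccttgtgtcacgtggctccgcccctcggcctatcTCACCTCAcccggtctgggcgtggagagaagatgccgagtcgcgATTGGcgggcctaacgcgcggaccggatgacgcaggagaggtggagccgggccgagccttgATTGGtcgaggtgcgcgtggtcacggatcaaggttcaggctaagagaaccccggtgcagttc
Msmo1 (chr8:64733529-64733828, minus strand): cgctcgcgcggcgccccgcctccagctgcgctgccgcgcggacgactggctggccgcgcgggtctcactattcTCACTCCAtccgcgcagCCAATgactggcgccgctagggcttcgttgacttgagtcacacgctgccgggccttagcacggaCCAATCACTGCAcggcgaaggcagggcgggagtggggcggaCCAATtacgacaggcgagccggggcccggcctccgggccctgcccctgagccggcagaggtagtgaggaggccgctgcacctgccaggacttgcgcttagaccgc
Dhcr7 (chr7:143829964-143830263, plus strand): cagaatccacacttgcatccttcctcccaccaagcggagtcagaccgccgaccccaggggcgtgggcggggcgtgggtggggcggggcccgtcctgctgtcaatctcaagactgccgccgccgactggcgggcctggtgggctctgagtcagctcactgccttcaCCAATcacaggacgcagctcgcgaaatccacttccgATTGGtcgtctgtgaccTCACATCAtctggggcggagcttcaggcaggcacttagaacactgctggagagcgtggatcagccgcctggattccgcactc
Elovl5 (chr9:77917115-77917414, plus strand): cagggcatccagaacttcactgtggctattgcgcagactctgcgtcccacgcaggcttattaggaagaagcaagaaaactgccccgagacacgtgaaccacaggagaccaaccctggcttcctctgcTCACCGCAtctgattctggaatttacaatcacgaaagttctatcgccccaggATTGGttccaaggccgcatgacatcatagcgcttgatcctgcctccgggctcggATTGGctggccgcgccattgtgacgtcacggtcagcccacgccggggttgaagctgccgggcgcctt
Hsd17b7 and Elovl5 carry 3 and 2 boxes, all on the other strand, and Cyp51 carries 1, between the element and the start site. The element precedes at least 1 box in each window except that of Dhcr7.

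None of the 6 regulators and carriers passed with LPS/IFNg against untreated cells, beside 41% of all genes called. At an unadjusted p below 0.05, 1 passed, beside 4394 of the 8952 genes. The median log2 fold change of the 6 was -0.30. Srebf2, the SREBP that favours the sterol branch, read 7.41 and 7.12 with LPS/IFNg, against 7.87, 6.37 and 7.23 in untreated cells. The untreated arrays enclosed both LPS/IFNg arrays, and the log2 fold change was 0.11 ± 0.41 (SE, limma, adjusted p = 0.855). Srebf1, the SREBP that favours fatty acids, read 6.13 and 6.11 with LPS/IFNg, against 6.11, 5.87 and 6.36 in untreated cells, a log2 fold change of 0.01 ± 0.32 (SE, limma, adjusted p = 0.99). The standard errors leave room for modest changes in either gene, and messenger levels do not show the cut, active protein.

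Insig1, itself a target of SREBP, read 6.74 and 7.13 with LPS/IFNg, against 7.48, 7.36 and 7.53 in untreated cells. Both LPS/IFNg arrays were below all untreated ones, but the log2 fold change of -0.52 ± 0.26 (SE, limma) did not pass (adjusted p = 0.131), and 2 other probes of Insig1 gave -0.01 and -0.07. Insig2 averaged 8.99 with LPS/IFNg and 9.07 in untreated cells, a log2 fold change of -0.07 ± 0.22 (SE). Scap averaged 6.34 ± 0.43 with LPS/IFNg (SD, n = 2) and 6.88 ± 0.18 in untreated cells (SD, n = 3), and did not pass (adjusted p = 0.107). Stard4, which ferries cholesterol between membranes, averaged 5.87 ± 1.03 with LPS/IFNg (SD, n = 2) and 7.50 ± 0.66 in untreated cells (SD, n = 3). Its log2 fold change of -1.64 ± 0.62 (SE, limma, adjusted p = 0.0555) was larger than that of most called members, but Stard4 also had the widest spread within groups of all 26 members, a residual SD of 0.811 beside a member median of 0.303. Its probe was detected on LPS/IFNg replicate 1 and not on replicate 3. With slide as a block it passed (adjusted p = 0.00932).

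**Figure D4:**
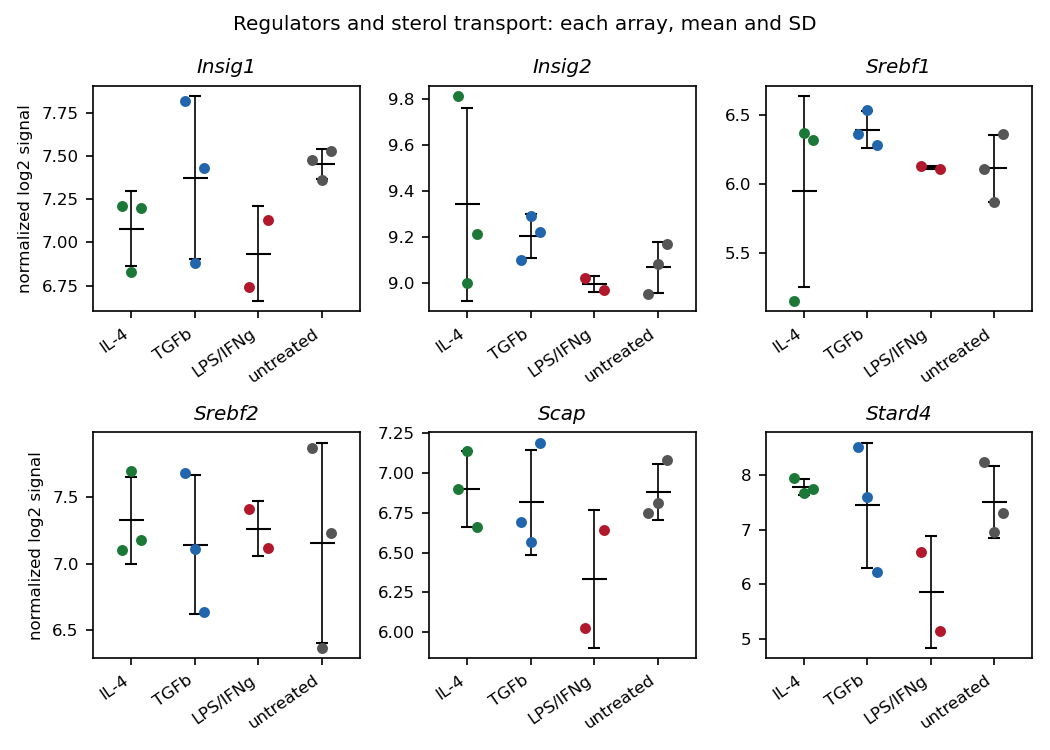
Normalized log2 signal (vertical axes, each with its own range and none starting at 0) of the 5 regulators and the sterol carrier Stard4. Points are arrays, horizontal bars are means and whiskers are SD (IL-4, TGFb and untreated n = 3, LPS/IFNg n = 2). For Srebf2 the untreated arrays, at 6.37 to 7.87, span the LPS/IFNg arrays, and IL-4 replicate 1 stands alone at 5.15 for Srebf1 and 9.81 for Insig2.

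In the fatty acid branch 3 of 7 measured members were called lower with LPS/IFNg than in untreated cells, 42.9% beside 23.5% of all genes. The calls were at the supply of acetyl-CoA and at the making of polyunsaturated chains. Fads1 read 7.51 and 6.93 with LPS/IFNg, against 11.90, 11.05 and 11.86 in untreated cells. The lowest of the 9 other arrays, IL-4 replicate 3 at 10.81, was still more than 3 log2 units above the higher LPS/IFNg array. The fall was 20.9-fold (limma, adjusted p = 4.96e-06), and a second probe of Fads1 was detected on no array. Elovl5, which elongates the chains that Fads1 desaturates, read 9.07 and 8.97 with LPS/IFNg, against 10.86, 11.10 and 11.27 in untreated cells. That was a 4.16-fold fall (log2 fold change -2.06 ± 0.25, SE, limma, adjusted p = 0.000108). Acly, which splits citrate to give cytosolic acetyl-CoA to both branches, averaged 11.44 ± 0.01 with LPS/IFNg (SD, n = 2) and 12.13 ± 0.24 in untreated cells (SD, n = 3). It fell by 0.69 ± 0.20 (SE, limma, adjusted p = 0.018), and did not pass without either LPS/IFNg array (highest adjusted p 0.0828), without untreated replicate 1 or under median scaling.

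The enzymes that make and desaturate the saturated chain were at the edge of detection. Fasn, the fatty acid synthase, read 4.25 and 4.35 with LPS/IFNg, against 4.89, 4.59 and 4.84 in untreated cells, and its probe was above the detection limit on none of these 5 arrays, so no fold change is given. Scd1, a stearoyl-CoA desaturase, read 5.64 and 4.42 with LPS/IFNg, against 4.49, 4.46 and 5.05 in untreated cells. It was detected on LPS/IFNg replicate 1 and on no untreated array, and did not pass (adjusted p = 0.46). Scd2, the desaturase typical of brain, read 4.30 and 4.51 with LPS/IFNg, against 4.38, 4.54 and 5.18 in untreated cells. It was detected on no LPS/IFNg array and on 1 untreated array, and did not pass (adjusted p = 0.355). Elovl1, which elongates saturated very long chains, had a log2 fold change of -0.27 ± 0.19 (SE, adjusted p = 0.295), while its 3 dimmer probes gave 0.09 to 0.21.

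Measured array by array, the mean deviation of the 26 members from their untreated means was -0.75 and -0.89 on the LPS/IFNg arrays, beside -0.08 and -0.10 for all genes. The sterol steps gave -0.95 and -0.94, the fatty acid members -1.01 and -1.22, the mevalonate steps -0.43 and -0.78 and the regulators -0.37 and -0.51. The mean of the fatty acid members was drawn by Fads1 and Elovl5, whose log2 fold changes were -4.38 and -2.06, while that of Acly, the other called member, was -0.69. The same measure was 0.05, 0.04 and 0.04 on the IL-4 arrays, 0.25, 0.01 and 0.19 on the TGFb arrays and 0.21, -0.22 and 0.02 on the untreated arrays, so both LPS/IFNg arrays lay below all others. Of the 8 microglia markers, 4 were lower, 1 was higher and 3 (Itgam, C1qa and C1qb) did not pass with LPS/IFNg against untreated cells. On the log2 scale Cx3cr1 changed by -5.59 (limma, adjusted p = 5.7e-05), Csf1r by -2.68 (adjusted p = 3.19e-05) and Aif1 by 1.32 (adjusted p = 0.00227), while P2ry12 and Tmem119 were at least 2.72-fold and 7.74-fold lower. The mean of the 8 microglia markers was 9.51 and 8.98 on the LPS/IFNg arrays and 10.20 to 11.43 on the untreated ones. Fibroblast and mural markers summed to 623 and 526 on the LPS/IFNg arrays and to 521 to 1043 on the untreated ones. The 4 detectable oligodendrocyte markers of 8 listed summed to 1688 and 1472 on the LPS/IFNg arrays and to 1902 to 2129 on the untreated ones. Among them Mbp had a log2 fold change of -3.61 (limma, adjusted p = 2.89e-07), Cnp of 1.53 (adjusted p = 0.0088) and Mag of 1.49 (adjusted p = 0.011), and Olig1 was not detected in either group. The 5 astrocyte markers summed to 718 and 697 on the LPS/IFNg arrays and to 623 to 726 on the untreated ones, and none was called. The part of the markers of any of these cell types in the falls of the synthesis genes was not tested.

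On the arrays of slide 2 alone, which hold 1 LPS/IFNg array and the 3 untreated ones, all 10 called members had the same sign, with log2 fold changes from -4.68 to -0.70, and 4 of the 10 passed (Msmo1, Dhcr7, Elovl5 and Fads1). The lone LPS/IFNg array is assumed there to vary like the other groups, and Dhcr7 was not detected on it. Slide 1 holds no untreated array. With slide as a block, 9 of the 10 passed, all but Ebp.

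Against IL-4 cells, LPS/IFNg cells had 10 members lower and none higher, beside 40% of all genes called (16.4% higher and 23.5% lower, 1470 and 2107 genes; 912 and 2506 under median scaling). The untreated cells are not part of this comparison, but its LPS/IFNg arrays are those described above. Against TGFb cells, LPS/IFNg cells had 12 members lower and none higher, beside 42% of all genes called (17.8% higher and 24.2% lower). The member medians were -0.54 and -0.63, beside -0.10 and -0.07 over all genes. The arrays did not overlap on 15 and on 16 members, shares of 57.7% and 61.5% beside 61% and 64.8% of all genes. All were lower with LPS/IFNg, beside 35% of all genes lower and 25.9% higher against IL-4, and 35.8% lower and 29.1% higher against TGFb. In both comparisons these members include Dhcr7, Fasn and Scd2, which were detected on no LPS/IFNg array. Fasn passed the detection filter only through 1 IL-4 and 1 TGFb array, which favours a lower reading with LPS/IFNg.

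Fads1 was 15.7-fold lower with LPS/IFNg than with IL-4 (7.22 ± 0.42, SD, n = 2, and 11.20 ± 0.49, SD, n = 3; limma, adjusted p = 1.1e-05) and 19.4-fold lower than with TGFb (11.50 ± 0.29, SD, n = 3; adjusted p = 5.28e-06). Elovl5 was 3.25-fold lower than with IL-4 and 4.18-fold lower than with TGFb (adjusted p = 0.000406 and 9.03e-05). Dhcr7 was at least 3.69-fold lower than with IL-4 (means of 5.23 and 7.25) and at least 3.72-fold lower than with TGFb (mean of 7.26). Sqle was 4.33-fold lower than with IL-4 and 4.99-fold lower than with TGFb (adjusted p = 0.00248 and 0.00115).

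Cyp51, Msmo1 and Hsd17b7 were lower with LPS/IFNg by 1.33, 1.04 and 0.99 log2 units against IL-4, and by 2.04, 1.67 and 1.86 against TGFb; all 6 differences passed (limma, highest adjusted p 0.0237). Fdps fell by 1.58 against IL-4 and by 1.53 against TGFb (adjusted p = 0.00112 and 0.00113). Mvd, which had not passed against untreated cells, was lower by 1.55 against IL-4 (adjusted p = 0.0192) and by 1.31 against TGFb (adjusted p = 0.0378). Stard4 passed against IL-4 alone (-1.92, adjusted p = 0.0302), beside -1.58 against TGFb (adjusted p = 0.0625). Ebp and Acly passed against TGFb and not against IL-4, with log2 fold changes of -0.69 and -0.77, beside -0.59 and -0.42. Scd2 also passed against TGFb (adjusted p = 0.0065) and not against IL-4 (adjusted p = 0.0607). Both comparisons share the LPS/IFNg arrays. Scd2 was detected on all 3 TGFb arrays and on no LPS/IFNg array, which allows a statement of at least 1.03-fold lower (means of 4.41 and 5.42).

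Several of these calls rest on single arrays. Against IL-4, 7 of the 10 calls passed whichever array was left out. Without LPS/IFNg replicate 3, Mvd (adjusted p = 0.148), Hsd17b7 (0.107) and Stard4 (0.26) did not pass, and without IL-4 replicate 1, the array with the other cell markers, Hsd17b7 (-0.88, adjusted p = 0.0554) and Stard4 (-1.84) did not pass while Scd2, Ebp and Elovl1 did. Stard4 also did not pass without IL-4 replicate 2 or 3, nor Hsd17b7 without IL-4 replicate 3 or LPS/IFNg replicate 1. Against TGFb, 8 of the 12 passed throughout. Of the others, Acly did not pass without LPS/IFNg replicate 3, Scd2 without LPS/IFNg replicate 1, Mvd without either of these or TGFb replicate 1 or 3, and Ebp without either of these, any TGFb array or untreated replicate 1. Within slide 2 and within slide 1, every one of the 10 and 12 calls kept its sign.

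With TGFb no member was called against untreated cells (limma, adjusted p below 0.05), beside 0.983% of all genes (0.614% higher and 0.369% lower). At an unadjusted p below 0.05, 3 of the 26 members passed, beside 987 of the 8952 genes. Those 3, Cyp51, Msmo1 and Scd2, all had higher means with TGFb, and the member median was 0.09 beside 0.01 over all genes. Cyp51 read 9.12, 8.55 and 9.00 with TGFb, against 8.69, 7.83 and 7.98 in untreated cells. TGFb replicate 2 lay below untreated replicate 1, and the log2 fold change of 0.72 ± 0.25 (SE, limma) had an adjusted p of 0.254. Msmo1 read 10.37, 10.29 and 10.36 with TGFb, against 10.26, 9.65 and 9.60 in untreated cells. All TGFb arrays were above all untreated ones, by 0.03 at the nearest, and the log2 fold change was 0.51 ± 0.20 (SE, limma, adjusted p = 0.357).

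Hsd17b7 read 9.55, 8.69 and 9.09 with TGFb, against 9.05, 8.24 and 8.30 in untreated cells, a log2 fold change of 0.58 ± 0.27 (SE, limma, adjusted p = 0.467). Scd2 read 5.22, 5.54 and 5.48 with TGFb, against 4.38, 4.54 and 5.18 in untreated cells. The arrays did not overlap, and the probe was detected on all 3 TGFb arrays and on 1 untreated one, with a log2 fold change of 0.71 ± 0.22 (SE, limma, adjusted p = 0.183). Non-overlap held for 2 of 26 members, a share of 7.69% beside 17.7% of all genes (9.17% higher and 8.55% lower). Sqle read 9.75, 8.70 and 9.42 with TGFb, against 9.87, 8.40 and 8.50 in untreated cells, which overlapped (adjusted p = 0.829).

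The regulators overlapped between TGFb and untreated arrays. Insig1 read 7.82, 6.88 and 7.43 with TGFb, against 7.48, 7.36 and 7.53 in untreated cells. Srebf1 read 6.36, 6.54 and 6.28 with TGFb, against 6.11, 5.87 and 6.36 in untreated cells. Srebf2 read 7.68, 7.11 and 6.64 with TGFb, against 7.87, 6.37 and 7.23 in untreated cells. The adjusted p of the 3 lay between 0.835 and 0.997. Fasn was detected on 1 TGFb array (5.28, with 4.60 and 4.73 on the others) and on no untreated array, and Scd1 on no array of either group. Fads1 and Elovl5, which were lower with LPS/IFNg, had log2 fold changes of -0.11 ± 0.31 and 0.00 ± 0.23 with TGFb (SE).

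With IL-4 no member was called against untreated cells either (limma), beside 1.28% of all genes (0.86% higher and 0.424% lower). At an unadjusted p below 0.05, 1 of the 26 members passed, beside 1264 of the 8952 genes. That member was Sc5d, which read 4.74, 4.80 and 4.45 with IL-4, against 5.46, 5.10 and 5.06 in untreated cells. The arrays did not overlap, but the probe was detected on no IL-4 array and on 2 untreated arrays, which allows a statement of at least 1.11-fold lower (adjusted p = 0.323). The only other array with detection was 1 with TGFb. Sc5d thus passed the detection filter only through groups where it read higher, which favours a lower reading with IL-4. The member median was 0.02 beside 0.01 over all genes, and Sc5d and Insig1 were the 2 members whose arrays did not overlap, 7.69% beside 18.5% of all genes (10.1% higher and 8.42% lower). Both were lower with IL-4.

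Lss read 7.97, 7.40 and 7.29 with IL-4, against 7.42, 6.91 and 6.69 in untreated cells. IL-4 replicate 1 was the highest array, and the log2 fold change was 0.55 ± 0.26 (SE, limma, adjusted p = 0.389), or 0.34 without that array. Fdps read 9.87, 10.24 and 9.88 with IL-4, against 10.02, 9.33 and 9.24 in untreated cells, and had a log2 fold change of 0.47 (adjusted p = 0.436), or 0.53 without IL-4 replicate 1. Pmvk read 6.94, 6.46 and 6.41 with IL-4, against 6.46, 6.07 and 6.32 in untreated cells, with a log2 fold change of 0.32 (adjusted p = 0.491) that was 0.15 without IL-4 replicate 1. The mevalonate steps averaged 0.73 above their untreated means on IL-4 replicate 1, 0.35 on replicate 2 and 0.10 on replicate 3, so this array carried much of the difference.

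Sqle read 8.97, 9.31 and 8.98 with IL-4, inside the untreated range of 8.40 to 9.87 (adjusted p = 0.897). Insig1 read 7.21, 6.83 and 7.20 with IL-4, against 7.48, 7.36 and 7.53 in untreated cells, all lower but not called (log2 fold change -0.38 ± 0.23, SE, limma, adjusted p = 0.517). Srebf1 read 5.15, 6.37 and 6.32 with IL-4, so that its mean fold change of -0.16 turned to 0.24 without IL-4 replicate 1; neither passed (adjusted p = 0.861 and 0.564). Srebf2 read 7.10, 7.70 and 7.18 with IL-4, within the untreated range. Fasn read 4.66, 4.54 and 5.17, Scd1 5.33, 4.30 and 4.62, and Scd2 4.80, 5.08 and 5.24 with IL-4, each detected on a single IL-4 array and none called. No member was called against untreated cells without IL-4 replicate 1.

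Between the 2 stimuli given for 48 h, no member was called (limma), beside 8.58% of all genes (3.92% higher and 4.66% lower, 351 and 417 genes; 431 and 214 under median scaling). At an unadjusted p below 0.05, 3 of the 26 members passed, beside 1976 of the 8952 genes. All 3 had lower means with IL-4 than with TGFb: Hsd17b7, Cyp51 and Msmo1. Nsdhl, which acts in the same demethylation cycle, had a log2 difference of 0.04 ± 0.23 (SE, limma, adjusted p = 0.94). Hsd17b7 averaged 8.24 ± 0.29 with IL-4 and 9.11 ± 0.43 with TGFb (SD, n = 3 each), a log2 difference of -0.87 ± 0.27 (SE, limma, adjusted p = 0.0766). Cyp51 averaged 8.18 ± 0.26 with IL-4 and 8.89 ± 0.30 with TGFb (SD, n = 3 each), a difference of -0.71 ± 0.25 (SE, limma, adjusted p = 0.111). Msmo1 averaged 9.71 ± 0.24 with IL-4 and 10.34 ± 0.04 with TGFb (SD, n = 3 each), a difference of -0.63 ± 0.20 (SE, limma, adjusted p = 0.0865). In these 3 genes, and in no other of the 26, every IL-4 array lay apart from every TGFb array, a share of 11.5% beside 27.3% of all genes (13.7% higher and 13.5% lower). Hsd17b7 passed with the replicate number as a block (adjusted p = 0.0125), Msmo1 on the value table of the authors (adjusted p = 0.049), and both without untreated replicate 1 (adjusted p = 0.0458 for Msmo1 and 0.049 for Hsd17b7). The member median was -0.05 beside 0.02 over all genes, and 0.14 under median scaling, where the median of all genes was 0.17.

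Of 20 other genes of sterol and fatty acid metabolism, 12 were tested, the others being not analysed here. With LPS/IFNg against untreated cells 2 were higher and 4 lower, 6 of 12 called beside the 41% of all genes. Both genes that rose bear on oxysterols. Ch25h, the hydroxylase that makes an oxysterol which blocks SREBP processing, read 13.36 and 13.37 with LPS/IFNg, against 9.79, 7.88 and 10.08 in untreated cells, a 17.3-fold rise (limma, adjusted p = 0.00293). Nr1h3, the liver X receptor alpha, read 8.38 and 8.39 with LPS/IFNg, against 5.63, 5.64 and 5.27 in untreated cells, a 7.31-fold rise (limma, adjusted p = 6.11e-05). On both genes the LPS/IFNg arrays lay above every other array of the series. No oxysterol and no SREBP protein was measured. A part of either gene in the falls of the synthesis genes was not tested.

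The 4 genes that fell have different roles. Mid1ip1, which activates acetyl-CoA carboxylase, read 7.23 and 6.39 with LPS/IFNg, against 10.16, 8.87 and 9.96 in untreated cells, a log2 fold change of -2.85 ± 0.40 (SE, limma, adjusted p = 0.000241). Tecr, the reductase that closes each round of chain elongation, read 8.98 and 8.75 with LPS/IFNg, against 10.70, 10.67 and 10.80 in untreated cells, a log2 fold change of -1.86 ± 0.20 (SE, limma, adjusted p = 4.4e-05), and its 2 dimmer probes gave -1.72 and -1.39. Lpin1, a phosphatidate phosphatase of triglyceride synthesis, was detected on no LPS/IFNg array and was at least 1.10-fold lower (adjusted p = 0.00937). Mbtps1, the protease that makes the first cut in SREBP, fell by 0.73 (adjusted p = 0.0413), while its 2 other probes gave -0.38 and -0.22 and did not pass.

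**Figure D5:**
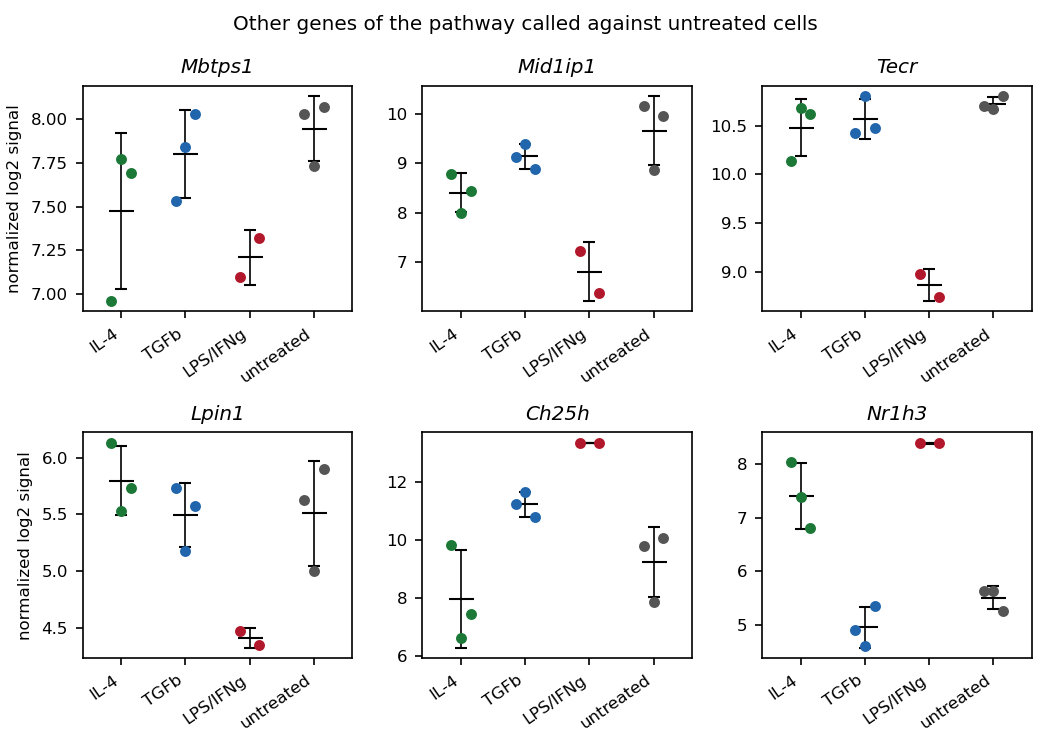
Normalized log2 signal (vertical axes, each with its own range and none starting at 0) of the 6 other pathway genes called in at least 1 stimulus against untreated cells. Points are arrays, horizontal bars are means and whiskers are SD (IL-4, TGFb and untreated n = 3, LPS/IFNg n = 2). LPS/IFNg arrays lie at 13.36 and 13.37 for Ch25h, above every other array, and IL-4 arrays lie at 6.81 to 8.03 for Nr1h3, above all TGFb and untreated arrays.

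Nr1h3 was also the 1 other pathway gene called with IL-4 against untreated cells: it read 8.03, 7.38 and 6.81 with IL-4, a 3.71-fold rise (limma, adjusted p = 0.015). With TGFb against untreated cells none of the 12 was called. At an unadjusted p below 0.05, 3 passed, beside 987 of the 8952 genes: Acss2, Mylip and Ch25h. Their log2 fold changes were -0.74, 0.67 and 1.99 (limma, adjusted p = 0.113, 0.185 and 0.332). Between IL-4 and TGFb cells, Nr1h3 was 5.44-fold higher with IL-4 (adjusted p = 0.00105), Ch25h was 9.67-fold lower (adjusted p = 0.0242) and Mylip, the ligase that marks the LDL receptor for degradation, was 1.93-fold lower (adjusted p = 0.0176). Ch25h read 9.85, 6.61 and 7.45 with IL-4 and 11.25, 11.68 and 10.80 with TGFb, with IL-4 replicate 1 nearest to the TGFb arrays. With LPS/IFNg against IL-4, Ch25h and Nr1h3 were higher by 5.40 and 0.98 log2 units, and Mid1ip1, Tecr, Lpin1 and Aacs, which activates acetoacetate for lipid synthesis, were lower. With LPS/IFNg against TGFb, Nr1h3 and Acss2, which activates acetate, were higher by 3.42 and 0.81, and Mid1ip1, Tecr, Lpin1 and Mylip were lower.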

How the data were processed

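Total RNA of primary mouse microglia was measured on 11 single-colour Illumina bead arrays. The deposited scanner table gives an intensity and a detection p-value for each of 45281 probes, not yet normalized. The authors also deposited a table of log2 values. Set against the scanner table, these follow the log2 of the quantile-normalized intensity within a slide, and Partek is named per the submitters' processing notes. The scanner intensity was used here: background correction and quantile normalization with neqc (limma 3.58.1, R 4.3.3, offset 16), probes kept with a detection p-value below 0.01 on at least 2 arrays, and the brightest probe of each gene. Of the probes, 34885 have 1 gene symbol in the platform annotation, 18 several and 10378 none, and 34807 were matched to RefSeq by Entrez number. Group means were fitted over all 11 arrays with lmFit and eBayes (7 residual degrees of freedom), giving 6 comparisons, each adjusted by the Benjamini-Hochberg method over 8952 genes. The fit was tested on simulated data. Array number limits the precision, and the arrays detected 12427 to 14200 probes each.

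The members and lists were chosen with earlier results of these data known. Values on every array are given for the up to 6 called members with the largest falls or rises (with fewer than 3 called, the 4 with the smallest p), and always for Sqle, Insig1, Srebf1, Srebf2, Fasn, Scd1 and Scd2. Hmgcs1 and Idi1 were on that list and have no tested value. Other members and called pathway genes are named with their values. Alternatives were no background correction, median scaling, the authors' table, 2 other filters, slide as a block, single slides, the replicate number as a block, and leaving out each array. "At least" marks a group in which the probe was detected on no array: the fold sets the brighter group's mean against the dimmer group's mean of, per array, the higher of the dimmest detected signal and the probe's own.

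Same-numbered IL-4 and untreated arrays deviated together (correlations of 0.401, 0.444 and 0.261 over genes), so these numbers were taken to pair, from the data and not the labels. For the other comparisons the numbers were not taken to pair. TGFb and untreated gave 0.485, 0.111 and -0.10, and IL-4 and TGFb gave 0.263, 0.0876 and 0.134. IL-4 replicate 2 with TGFb replicate 3, of unlike number, gave 0.165. LPS/IFNg gave 0.202 and -0.156 with untreated, -0.0134 and -0.0420 with IL-4, and 0.235 and 0.369 with TGFb.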

Additional observations from a re-analysis of the deposited data

How the results depend on the processing

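With IL-4 or TGFb against untreated cells, 0 members were called under every alternative run. Between IL-4 and TGFb, where none was called, the authors' table called 1 (Msmo1), the replicate block 1 (Hsd17b7), and leaving out single arrays 0 to 2, with 2 without untreated replicate 1. With LPS/IFNg, leaving out single arrays gave 7 to 12 calls against untreated cells, 7 to 11 against IL-4 and 10 to 12 against TGFb. Slide 2 alone, with 1 LPS/IFNg array, gave 5 calls against untreated cells, 4 against IL-4 and 7 against TGFb, and slide 1 alone gave 2 against IL-4 and 6 against TGFb. These fits hold fewer arrays, and the lone LPS/IFNg array is assumed to vary like the other groups. With LPS/IFNg against untreated, IL-4 and TGFb cells, the replicate block gave 14, 13 and 14 calls among the members. It called 3831, 3664 and 3838 of all 8952 genes, beside 3674, 3577 and 3756 without a block. The LPS/IFNg arrays share only a number with the others. The number of all genes called also varied between the settings, so these counts do not speak of the members alone. The paired IL-4 fit changed no call against untreated cells. Of 1408 results for named genes, 1338 kept their side of the threshold, 57 lost the call, 13 gained one and 0 changed direction while called. Uncalled results could change sign, as Srebf1 did with IL-4. For 8 members, 13 further probes passed the detection filter. Of their 78 results over the comparisons, 27 differed in sign from the probe used, and 0 were called in opposite directions. Without LPS/IFNg replicate 3, 1 member, Scd1, was called higher than with TGFb, from 1 LPS/IFNg array and against a group in which its probe was detected on no array. Median scaling moved the median of all genes with LPS/IFNg against untreated cells to -0.25, beside -0.07, and that of the members to -0.71. Genes near background, such as Fasn, Scd1 and Sc5d, have limits rather than levels.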
